A study of Homo sapiens with 6 samples.

Results

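Collagens and other extracellular matrix proteins were followed across 6 expression arrays of Daoy cells, a line grown from a human medulloblastoma, an embryonal tumour of the cerebellum. The set holds 45 listed genes in 7 classes, of 19775 genes with a probe set named to that gene alone in the platform annotation. The classes are 6 fibrillar collagens, 16 basement membrane proteins, 8 other collagens, 4 elastic fibre and microfibril proteins, 4 adhesive glycoproteins including fibronectin, 4 proteoglycans and 3 lysyl oxidases. The 3 groups of 2 arrays were untreated cells, cells given 1 µM thapsigargin and taken at 3 h, and cells taken at 8 h. All groups were the same cultured line, so no matrix made by stroma or vessels is represented, and the labels give no sampling time for the untreated cells. Each gene is given by its brightest probe set, and every level is the authors' MAS5 signal, a linear brightness scaled to the same trimmed mean of 500 on each array. Signals are compared between arrays only, never between genes, since each probe set has its own response.

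Thapsigargin blocks the calcium pump of the endoplasmic reticulum and so starts the unfolded protein response (UPR). The same compartment is where collagen and laminin chains are folded and assembled, with the help of hydroxylases and chaperones, before secretion. Fibrillar collagens form the cables of connective tissue. Type IV collagen and the laminins form the sheet-like networks of basement membranes, linked by nidogens and perlecan, and lysyl oxidases cross-link the deposited collagen and elastin.

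LAMA3, a laminin alpha chain, had no probe set named to it alone, and COL11A1 and COL8A1 read under 100 on all 6 arrays with their brightest probe set and were not tested. The other 42 members were tested among 12839 genes. Of these 42, 34 had a signal of 100 or more on every array and 8 were dimmer on at least 1 array. As a check of the treatment labels, all 8 UPR genes examined had higher mean signals at both times, from 1.42 to 4.38 on the log2 scale at 3 h and from 1.70 to 4.41 at 8 h. The neural and progenitor markers SOX2, ZIC1, PAX6 and VIM were read well above 100, while ATOH1, MSI1 and GFAP did not pass the signal filter, nor did the endothelial markers CDH5, VWF and CLDN5, the immune markers PTPRC, CD14 and CD3E, or the mesenchymal receptors PDGFRA and PDGFRB. In all, 11 of 15 neural, 3 of 6 endothelial, 0 of 5 immune, 4 of 5 epithelial and 5 of 7 fibroblast and pericyte markers were tested. The fibroblast and pericyte markers that passed the filter were THY1, FAP, ACTA2, S100A4 and CSPG4, and the endothelial ones were PECAM1, TEK and KDR. At 8 h the median log2 change was -0.49 over the neural markers, of which 3 were called lower with the block, and -0.37 over the fibroblast and pericyte markers, of which 0 were called.

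Both replicate series differed on the arrays themselves. Median signals lay between 84.8 and 103 in replicate 1 and between 69.7 and 75.3 in replicate 2. The mean of the spiked hybridization controls lay between 6547 and 9684 in replicate 1 against 2230 to 2401 in replicate 2. In untreated cells the UPR gene DDIT3 gave 405.4 in replicate 1 and 1654.4 in replicate 2, and TRIB3 gave 839.9 and 7879.1. The untreated arrays thus differed in these stress genes, and which of them is unusual cannot be told from 2 arrays. For 19 of the 42 members the untreated arrays differed by more than the 8 h change did. For that reason each comparison was fitted with limma without and with the replicate number as a block. The labels do not say that equal replicate numbers mark the same experiment, so the block rests on an assumed pairing. "Rose" and "fell" are kept for members past an adjusted p of 0.05 in the fit with the block, and no member passed without it. The part that the replicate difference, including that of these stress genes in untreated cells, plays in the results was not tested.

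The first comparison asks which matrix genes differed after 3 h of thapsigargin. COL5A1, the main chain of the type V collagen that sits inside type I fibrils, and FRAS1, a large protein of epithelial basement membranes, fell to 0.549 and 0.517 times the untreated level. No member rose. In RNA of a whole culture, fewer cells with a transcript and less of it per cell cannot be told apart. In the fit without the block 0 of 42 members passed in either direction (lowest adjusted p 0.475). At an unadjusted p under 0.05 in that fit, 0 members were higher and 3 lower, beside 419 and 159 of all 12839 genes. By adjusted p, 0.0701% of all genes were called higher and 0% lower by that fit, against 1.17% and 0.0779% in the fit with the block. The local pooled error test named in the study's methods, coded anew here, called 0 members at any time. Of all 12839 genes it called 38 higher and 0 lower at 3 h, and 135 and 27 at 8 h. Between the times it called 21 higher and 19 lower. With so few calls, 0 of 42 does not set the members apart. Across the 42 members the median log2 change at 3 h was -0.26, beside -0.02 over all genes. Without 3 h replicate 2 that median was -0.10.

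COL5A1 gave signals of 4379.4 and 4006.2 in untreated cells, 2594.7 and 2035.1 at 3 h, and 2116.2 and 2450.0 at 8 h. All treated arrays were below both untreated arrays, and the 3 h and 8 h arrays overlapped. The log2 change at 3 h was -0.87 with a standard error of 0.15 in the fit with the block (adjusted p 0.0331, against 0.51 without it). All 3 probe sets of COL5A1 passed at 3 h with the block.

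FRAS1 gave 1090.0 and 1038.6 in untreated cells, 501.0 and 604.0 at 3 h, and 660.1 and 785.2 at 8 h. Its arrays were lowest at 3 h and did not overlap with the untreated ones at either time. The log2 change was -0.95 ± 0.18 (SE with the block) at 3 h (adjusted p 0.0443), and -0.56 at 8 h, where it did not pass (adjusted p 0.104). Both calls at 3 h rest on all 4 arrays: without either untreated array or either 3 h array, 0 of the 2 genes passed.

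By 8 h, the question being which changes were present after longer exposure, 7 members fell and 2 rose in the fit with the block. The 7 were COL5A1, the type IV collagen chains COL4A1 and COL4A2, the laminin chain LAMB1, the microfibril protein FBN1, the proteoglycan LUM and the lysyl oxidase LOXL1, at 0.532 to 0.684 times the untreated level. Those that rose were LOX, the founding lysyl oxidase, and COL5A2, the partner chain of COL5A1, at 1.79 and 1.54 times. In that fit 4.76% of all genes were called higher and 3.79% lower at 8 h, so the 2 of 42 members that rose are near the background share. With each array centred on its median as well, 3 members were higher and 3 lower. Without the block 0 of 42 members passed (lowest adjusted p 0.158), beside 0.646% of all genes called higher and 0.21% lower. At an unadjusted p under 0.05 in that fit, 3 members were higher and 9 lower, beside 699 and 852 of all 12839 genes.

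The calls at 8 h depended on single arrays. Without untreated replicate 1, 0 of the 9 passed, and without untreated replicate 2, 3 did (COL5A1, LOX and LOXL1). Without 8 h replicate 1, 2 passed (COL4A2 and LOX), and without 8 h replicate 2, 4 did (COL5A1, COL4A1, LOX and LOXL1). Leaving out a 3 h array kept all 9. With no intensity trend in the variance of the fit with the block, 0 of the 9 passed. Median centring lost COL4A2, LAMB1, LUM and LOXL1, and the mean of all probe sets lost COL5A2 and FBN1. Over 12 settings with the block, adjusted p of the named members ran from 0.000956 to 0.551, and over 17 without it from 0.0863 to 1.

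**Figure D1:**
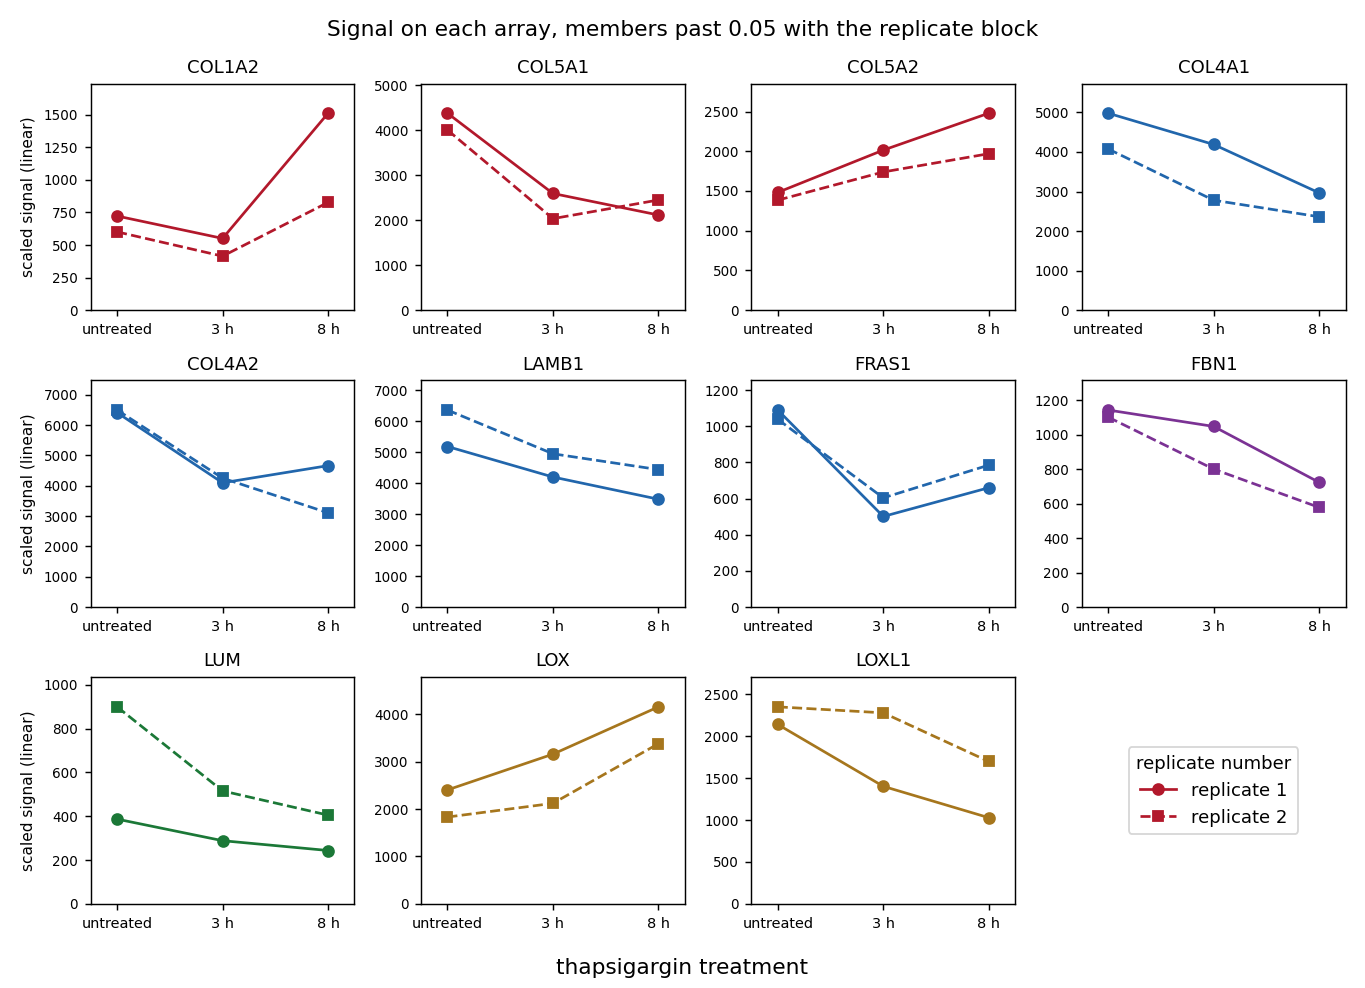
Scaled signal (vertical axis, linear from 0) of the 11 members past an adjusted p of 0.05 in any comparison with the replicate block, in untreated cells and at 3 h and 8 h. Lines join arrays of the same replicate number, solid for 1 and dashed for 2; COL1A2 is lowest at 3 h and highest at 8 h in both, and COL5A1 lies below its untreated arrays at both times.

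Basement membrane proteins, the largest class, had the most members below the untreated level. Of 15 tested, 13 had a lower mean at 3 h and 14 at 8 h, and 13 were lower at 8 h within both replicates. Over all 12839 genes, 6813 had a lower mean at 3 h and 7713 at 8 h. The count within both replicates was not made over all genes. The counts of the class include the dim members described below. Their median log2 change was -0.50 at 3 h and -0.65 at 8 h, beside -0.02 and -0.09 over all genes. At each time 9 of 15 had both treated arrays below both untreated arrays. Over all genes that held for 16.5% at 3 h and 26.7% at 8 h. Nonetheless only FRAS1 fell at 3 h, and COL4A1, COL4A2 and LAMB1 at 8 h. The class median at 8 h stayed between -0.56 and -0.59 with the arrays centred on their medians or quantile normalized. With the block, however, median centring kept the call of COL4A1 at 8 h and lost those of COL4A2 and LAMB1.

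COL4A1 gave 4980.7 and 4076.9 in untreated cells, 4190.1 and 2780.1 at 3 h, and 2966.3 and 2362.0 at 8 h. At 8 h both arrays were below both untreated arrays, while at 3 h the groups overlapped. The 8 h change was -0.77 ± 0.13 on the log2 scale (adjusted p 0.00786 with the block, 0.344 without).

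COL4A2, whose product joins that of COL4A1 in the same collagen molecule, gave 6414.1 and 6500.1, then 4098.1 and 4252.8, then 4664.9 and 3107.7. All treated arrays were below the untreated ones. Its 8 h change was -0.76 ± 0.16 (adjusted p 0.0242 with the block, 0.29 without). The log2 ratio of COL4A2 to COL4A1 moved by 0.29 in replicate 1 and -0.28 in replicate 2 at 8 h, so the size of their changes was not told apart. The second probe set of each gene passed at 8 h as well, with -0.82 for COL4A1 and -0.90 for COL4A2.

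LAMB1 encodes a beta chain found in several laminins. It gave 5188.5 and 6367.7 in untreated cells, 4202.6 and 4953.1 at 3 h, and 3484.5 and 4441.7 at 8 h. Within each replicate the signal was lowest at 8 h, and no treated array reached an untreated one. The 8 h change was -0.55 ± 0.12 (adjusted p 0.0226 with the block, 0.478 without), and the other probe set passed too with -0.61.

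The gamma chain LAMC1, which pairs with LAMB1 in laminins, gave 1797.3 and 3716.5 untreated and 1215.1 and 2123.1 at 8 h, a change of -0.69 ± 0.19 that did not pass (adjusted p 0.0661 with the block). On this probe set the untreated arrays were far apart, so that the groups overlapped. A second probe set of LAMC1 read 1799.4 and 1790.0 untreated and 1611.3 and 1315.6 at 8 h, with no overlap. Its change of -0.30 did not pass (adjusted p 0.37 with the block). NID1, a nidogen that bridges laminin and collagen IV, gave 793.3 and 986.8 untreated, 600.0 and 641.6 at 3 h, and 585.1 and 520.2 at 8 h. Its groups did not overlap at either time, but it did not pass (8 h change -0.68, adjusted p 0.0698 with the block). A dimmer probe set of NID1 overlapped at both times, with -0.525 at 8 h. On their brightest probe sets COL18A1 and LAMA4 also lay below untreated on all treated arrays without passing, with 8 h changes of -0.58 and -0.44. The second set of COL18A1 read 656.7 and 698.3 untreated and 1321.8 and 525.0 at 3 h, with -0.38 at 8 h. The other tested sets of LAMA4 ran from -0.91 to -0.02 at 8 h.

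LAMB3 was the 1 basement membrane member with a higher mean at 8 h. It gave 411.9 and 188.1 untreated and 681.3 and 320.6 at 8 h, overlapping groups with a change of 0.75 that did not pass (adjusted p 0.102 with the block). HSPG2, or perlecan, had the largest mean change of the class at 8 h, -1.88, but on dim signals of 230.0 and 97.3 untreated and 148.1 and 11.2 at 8 h, with an SE of 1.23. LAMA5 was similarly dim, with 107.1 and 282.2 untreated and 25.2 and 91.8 at 8 h. Signals of this size carry no reliable fold. COL4A5 and COL4A6, the X-linked type IV chains, were also near the filter: COL4A5 read 139.8 and 176.7 untreated and 100.5 and 100.3 at 8 h, and COL4A6 read 219.1 and 72.7 untreated and 102.7 and 53.6 at 8 h. Neither passed at any time.

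**Figure D2:**
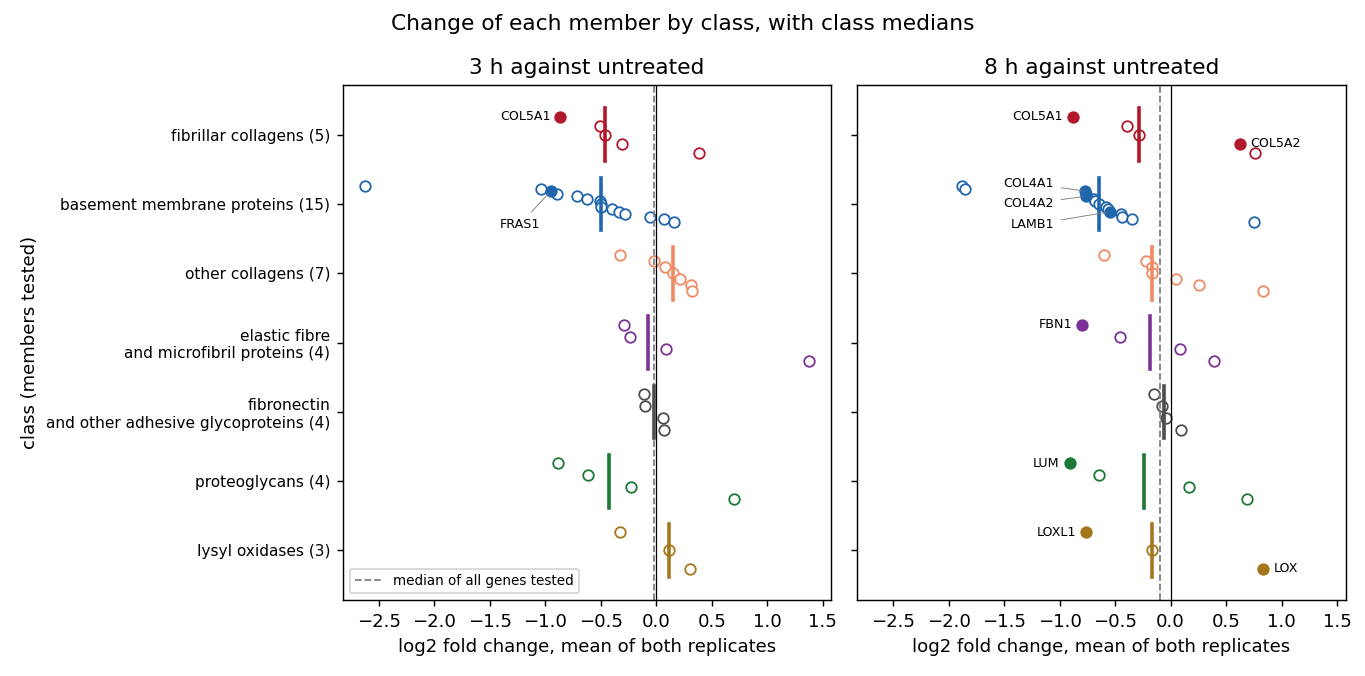
Log2 fold change of each tested member (horizontal axis) by class (rows, with the number tested) at 3 h and 8 h against untreated. Filled points passed 0.05 with the replicate block, thick bars are class medians and the dashed line is the median of all genes tested; the basement membrane points lie to the left of 0 except 2 at 3 h and LAMB3 at 8 h.

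COL4A1 and COL4A2 lie head to head on chromosome 13, and the RefSeq promoter windows of GRCh38.p14, 250 bases before to 50 after each start, share 226 bases. The 126 bases between the starts are shown first, in the direction of COL4A2, because a pair that fell together shares them. Upstream sequences of COL5A1 and LAMB1, which fell, and of LOX, which rose, follow, each 250 bases up to the outermost start. Capitals mark the CCAAT box (CCAAT) and the GC box (GGGCGG), both read on either strand. The stretches are chr13:110307158-110307283 on the plus strand, chr9:134641553-134641802 on the plus strand, chr7:108003162-108003411 on the minus strand and chr5:122078260-122078509 on the minus strand.
COL4A1 and COL4A2: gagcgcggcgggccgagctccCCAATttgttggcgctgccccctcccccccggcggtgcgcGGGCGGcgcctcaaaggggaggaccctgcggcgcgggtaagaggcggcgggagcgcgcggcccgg
COL5A1: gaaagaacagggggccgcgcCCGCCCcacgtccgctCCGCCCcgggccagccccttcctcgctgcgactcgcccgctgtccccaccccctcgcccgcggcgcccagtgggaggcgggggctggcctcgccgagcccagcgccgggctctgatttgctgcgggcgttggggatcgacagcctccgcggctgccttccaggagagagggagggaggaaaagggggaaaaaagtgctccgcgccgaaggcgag
LAMB1: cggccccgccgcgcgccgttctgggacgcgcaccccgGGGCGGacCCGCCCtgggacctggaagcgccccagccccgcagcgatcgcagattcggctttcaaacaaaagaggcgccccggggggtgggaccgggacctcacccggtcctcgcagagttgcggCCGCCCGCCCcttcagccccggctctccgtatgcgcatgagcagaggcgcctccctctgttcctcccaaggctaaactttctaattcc
LOX: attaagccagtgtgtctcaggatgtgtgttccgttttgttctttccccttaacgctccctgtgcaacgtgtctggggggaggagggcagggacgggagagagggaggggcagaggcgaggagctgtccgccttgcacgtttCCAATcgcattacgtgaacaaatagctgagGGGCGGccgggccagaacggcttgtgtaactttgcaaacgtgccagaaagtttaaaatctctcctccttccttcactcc

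A window was found for 35 of the 45 members, and for each the 1 at the outermost start was used. The windows of all genes used for comparison can include several of a gene. The GC box letters stood in 27 of these 35, beside 45% of all 35116 windows, and the CCAAT letters in 10, beside 34.6%. In the UPR genes used as a check, the GC box letters stood in 7 of 8 windows. The letters TATAAA stood in 3 (COL6A2, COL7A1 and COL13A1), beside 11.5% of all windows. Letters known from promoters of UPR genes were also searched on both strands: the ER stress response element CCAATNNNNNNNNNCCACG, whose first 5 letters overlap the CCAAT search, the UPR element TGACGTGG and the amino acid response letters TTGCATCA. They stood in 0.0769%, 0.729% and 0.866% of all windows, and in none of the 35 member windows. Letters this rare would seldom be met in 35 windows, so their absence does not set the members apart. In the windows of the 8 UPR genes used as a check, they stood in 2, 0 and 1. COL4A5 and COL4A6 also lie head to head, on the X chromosome, with 121 bases in common between their windows.

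Fibrillar collagens split by chain. Of 5 tested, the mean at 8 h was higher for COL1A2 and COL5A2 and lower for COL1A1, COL3A1 and COL5A1, with a median of -0.29. COL5A2 gave 1482.3 and 1384.6 untreated, 2014.2 and 1739.3 at 3 h, and 2479.0 and 1969.1 at 8 h. Every treated array was above both untreated arrays. The 8 h change was 0.63 ± 0.14 (adjusted p 0.0277 with the block, 0.343 without). Its second probe set, with 0.38, did not pass (adjusted p 0.215 with the block).

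COL5A1 at 8 h changed by -0.88 ± 0.15 (adjusted p 0.00909 with the block, 0.158 without), and its other probe sets passed with -0.72 and -0.93. The log2 ratio of COL5A2 to COL5A1, whose products assemble together in type V collagen, was higher than in untreated cells within both replicates, by 1.20 and 1.31 at 3 h and by 1.79 and 1.22 at 8 h. No test was made of that ratio.

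COL1A2, a chain of type I collagen, gave 722.8 and 601.3 in untreated cells, 550.9 and 414.6 at 3 h, and 1511.9 and 827.6 at 8 h. The 3 h arrays were below, and the 8 h arrays above, both untreated arrays. Against untreated neither time passed (3 h change -0.46, adjusted p 0.411; 8 h change 0.76, adjusted p 0.054, both with the block). Between 3 h and 8 h it rose by 1.23 ± 0.20 on the log2 scale, 2.34-fold (adjusted p 0.0166 with the block, 0.448 without). It was the only member called in that comparison: without the block 0 members passed. At an unadjusted p under 0.05 in that fit, 1 member was higher and 0 lower, beside 355 and 649 of all 12839 genes. Without the block 0% of all genes were called in either direction, and with it 1.53% were called higher and 1.72% lower. The 1 of 42 members called higher is near that share. COL1A2 did not pass without 3 h replicate 1, 3 h replicate 2 or 8 h replicate 1, nor with the mean of its probe sets. A second probe set moved the same way without passing, from 428.5 and 180.4 untreated to 629.6 and 257.1 at 8 h. The dimmest tested set read 21.8 and 17.5 untreated, 35.0 and 126.3 at 3 h, and 222.5 and 93.0 at 8 h. It was thus higher, not lower, at 3 h, and its replicates moved in opposite directions between the times.

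COL1A1, the other chain of type I collagen, depended on the probe set. The brightest read 33447.7 and 23528.3 untreated, 27423.3 and 18745.7 at 3 h, and 30015.0 and 17638.9 at 8 h, with overlapping groups and a change of -0.29 at 8 h (adjusted p 0.183 with the block). The next brightest read 18480.1 and 22115.0 untreated, 11450.6 and 12672.0 at 3 h, and 11045.5 and 11809.9 at 8 h. Its treated arrays all lay below the untreated ones, and it passed with the block at 3 h (-0.75, adjusted p 0.0111) and at 8 h (-0.82, adjusted p 0.00209). A dimmer set, at 1017.1 and 931.1 untreated and 492.0 and 392.4 at 8 h, passed as well, with -1.15 at 8 h. Of the remaining sets, the one with 365.2 and 362.3 untreated gave -0.84 at 8 h without passing and the dimmest gave 0.05. With the mean of all probe sets in place of the brightest, and with the block, COL1A1 was among 8 members called lower at 8 h.

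COL3A1, a chain of the fine fibrils of soft tissue, differed more between replicates than with treatment. It gave 6888.6 and 2904.9 untreated, 4600.3 and 2154.7 at 3 h, and 4908.9 and 2357.7 at 8 h. Within each replicate it was lower at both times, with a change of -0.39 ± 0.12 at 8 h that did not pass (adjusted p 0.0967 with the block).

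**Figure D3:**
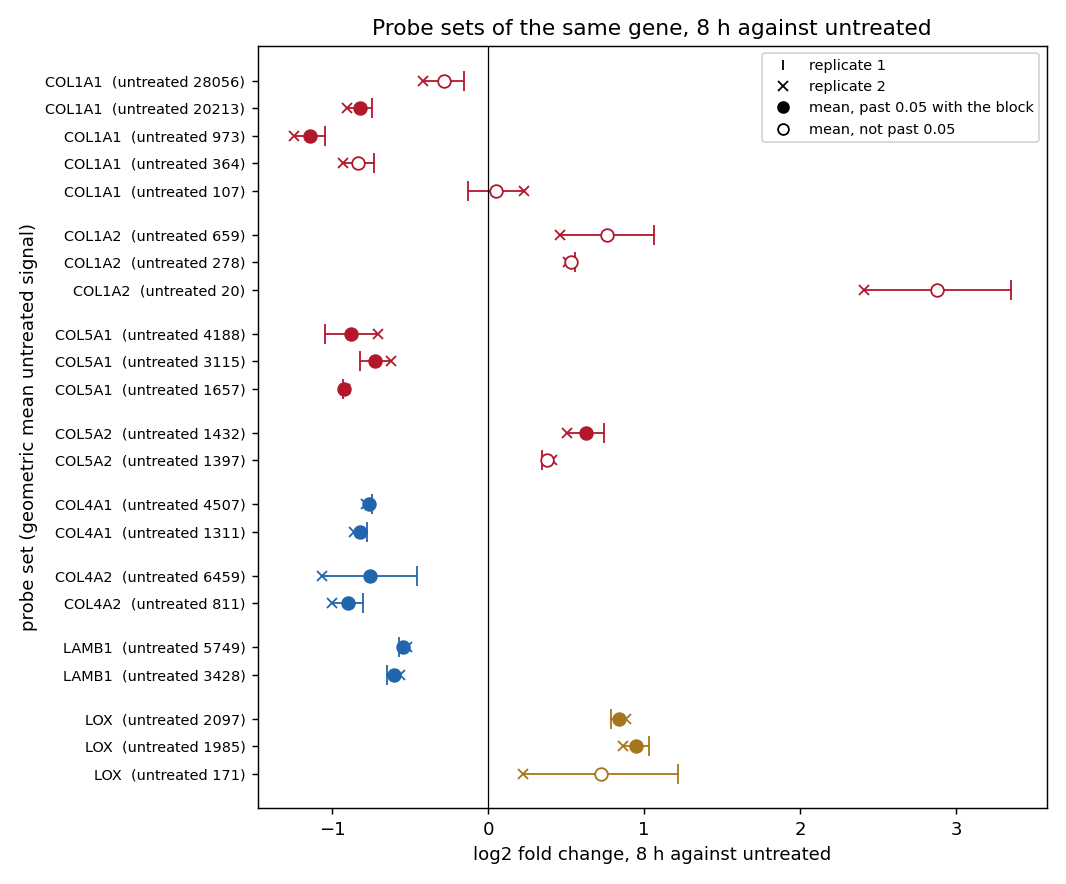
Log2 fold change at 8 h against untreated (horizontal axis) for each tested probe set of 8 genes, labelled with its geometric mean untreated signal. Vertical ticks and crosses are replicates 1 and 2, circles their mean, filled where the probe set passed 0.05 with the block; the sets of COL5A1, COL4A1, COL4A2 and LAMB1 share a sign, while those of COL1A1 run from -1.15 to 0.05.

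The other collagens showed no call in any comparison, with or without the block. Of 7 tested, 5 had a higher mean at 3 h and 3 at 8 h, with medians of 0.15 and -0.16. The chains of type VI collagen, which forms beaded filaments around cells, were not called at either time. COL6A1 gave 14562.8 and 9434.4 untreated and 12068.1 and 8386.3 at 8 h. COL6A2 gave 8931.8 and 5474.6 untreated and 10740.7 and 6498.9 at 8 h. COL6A3 gave 13874.8 and 13615.6 untreated and 14146.9 and 10636.3 at 8 h. At 8 h all of these overlapped with untreated, and the changes were -0.22, 0.26 and -0.16 with standard errors of 0.11 to 0.13 with the block. At 3 h COL6A3 gave 10695.3 and 11145.8, below both untreated arrays, a change of -0.33 that did not pass (adjusted p 0.383 with the block). COL12A1, a fibril-associated collagen, stood at 2919.5 on 3 h replicate 1 against 1450.0 to 1756.3 on all other arrays. COL16A1, also fibril-associated, read 440.7 and 311.8 untreated and 250.7 and 239.5 at 8 h, with no overlap and a change of -0.60 that did not pass (adjusted p 0.221 with the block). COL13A1, a transmembrane collagen, had the largest 8 h change of the class at 0.84, but its 3 probe sets disagreed in sign and that one read between 56.3 and 166.4. For COL7A1, the anchoring fibril collagen, the probe sets differed. The brightest gave an 8 h change of 0.05, and the other, at 518.7 and 508.1 untreated, 402.8 and 275.2 at 3 h and 358.4 and 331.6 at 8 h, gave -0.57 with no overlap and did not pass (adjusted p 0.201 with the block).

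Among elastic fibre and microfibril proteins only FBN1, fibrillin, was called. It gave 1144.1 and 1103.0 untreated, 1048.8 and 800.9 at 3 h, and 724.0 and 578.6 at 8 h. Its signal was lowest at 8 h in both replicates and the 8 h arrays did not overlap with the others. The change was -0.80 ± 0.17 (adjusted p 0.0238 with the block, 0.265 without). A dimmer probe set, at 236.3 and 88.4 untreated, gave -0.50 without passing. FBN2, the related fibrillin, read 1072.6 and 1420.9 untreated and 1120.2 and 1526.7 at 8 h, a change of 0.08. FBLN1, a fibulin, did not pass at any time, and ELN, elastin, read between 6.2 and 151.3 across the arrays with no order by group.

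The adhesive glycoproteins had the smallest changes of the 7 classes at 8 h. FN1, fibronectin, gave 29437.0 and 15710.1 untreated, 31971.7 and 15710.2 at 3 h, and 27742.4 and 15032.8 at 8 h. TGFBI, a secreted adhesion protein, gave 56434.5 and 34111.6 untreated and 47791.9 and 32930.3 at 8 h. The replicates differed far more than the treatments did. All 4 members of the class lay between -0.15 and 0.09 at 8 h, with standard errors of 0.11 to 0.14 with the block, and none of the 4 had groups that did not overlap. The change was -0.04 for SPARC, a collagen-binding protein, and 0.09 for TNC, tenascin C.

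Of the proteoglycans LUM, lumican, which binds collagen fibrils, fell at 8 h. It gave 386.6 and 898.8 untreated, 288.2 and 515.3 at 3 h, and 243.4 and 404.8 at 8 h. The order was the same in both replicates, but the groups overlapped because the untreated arrays were far apart. The change was -0.91 ± 0.23 (adjusted p 0.0439 with the block, 0.596 without). LUM did not pass with the block once arrays were quantile normalized, centred on their medians or floored at 100. VCAN, versican, gave 1064.8 and 1216.3 untreated and 791.8 and 671.3 at 8 h, with no overlap and a change of -0.64 that did not pass (adjusted p 0.0641 with the block). All 5 of its tested probe sets had a lower mean at 8 h, and a dimmer set, at 313.7 and 290.6 untreated and 96.9 and 138.7 at 8 h, passed with the block (-1.38, adjusted p 0.0484). VCAN was also called lower at 8 h with the block on the mean of all probe sets. BGN, biglycan, read from 73.7 to 310.9 and DCN, decorin, from 36.3 to 102.2 over the arrays, and neither passed.

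The lysyl oxidases moved in different directions. LOX gave 2402.8 and 1831.0 untreated, 3157.4 and 2119.9 at 3 h, and 4154.8 and 3378.1 at 8 h. Both 8 h arrays were above all others. The 8 h change was 0.84 ± 0.13 (adjusted p 0.0053 with the block, 0.3 without), and a second probe set of near equal brightness passed with 0.95. LOX passed at 8 h with the block whichever array was left out except untreated replicate 1. LOXL1, a relative needed for elastic fibres, gave 2141.4 and 2351.4 untreated, 1402.9 and 2279.9 at 3 h, and 1028.5 and 1699.4 at 8 h. Its 8 h arrays were below both untreated arrays. The change was -0.76 ± 0.17 (adjusted p 0.0305 with the block, 0.481 without). LOXL2 gave 3527.2 and 3409.7 untreated and 3028.9 and 3145.9 at 8 h, a change of -0.17 that did not pass. The log2 ratio of LOX to LOXL1 was higher at 8 h than in untreated cells by 1.85 in replicate 1 and 1.35 in replicate 2, with no test made.

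Over all 42 members, 27 were lower and 10 higher within both replicates at 8 h, and 23 lower and 7 higher at 3 h. That count was not made over all genes, so it does not set the members apart. By mean, 27 members were lower at 3 h and 30 at 8 h, beside 6813 and 7713 of all 12839 genes. Both treated arrays lay above both untreated arrays for 1 member at 3 h and 5 at 8 h, beside 14% and 15.3% of all genes. They lay below for 15 members at 3 h and 16 at 8 h, beside 16.5% and 26.7% of all genes. The median log2 change of the members at 8 h was -0.37, beside -0.09 for all genes, and it was -0.18 without untreated replicate 1 and -0.22 without 8 h replicate 2.

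**Figure D4:**
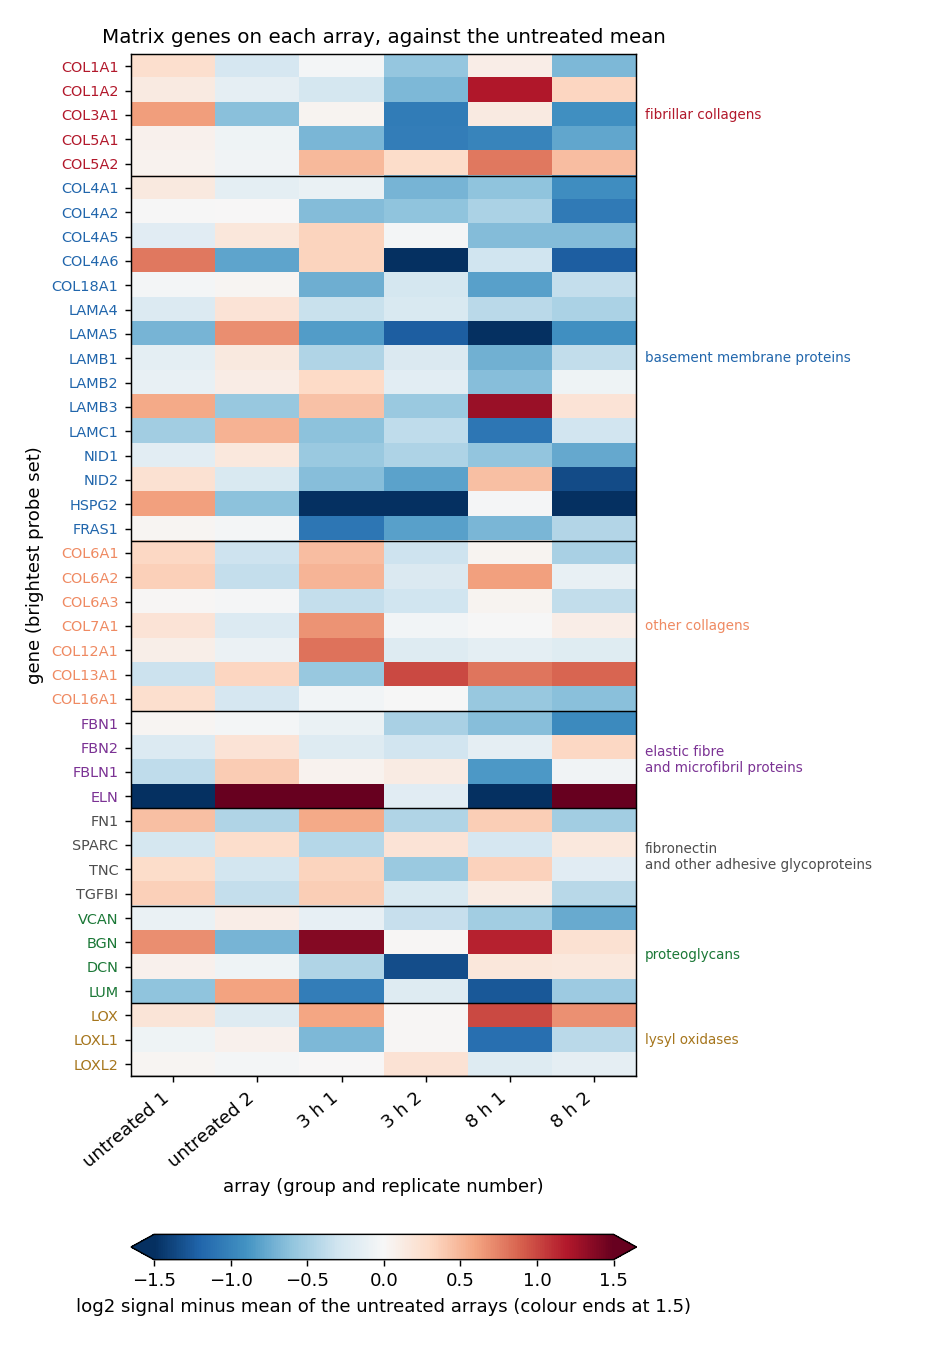
Log2 signal of each of the 42 tested members (rows, by class) on each of the 6 arrays (columns), as the difference from the mean of the untreated arrays. Blue is lower and red higher, with colours ending at 1.5; basement membrane rows are mostly blue on treated arrays, adhesive glycoprotein rows follow the replicate number, and ELN has no order by group.

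Genes that process, bind or degrade the matrix were listed beside the members, and the ones named here were chosen after their values were seen where the list held several calls. Of 25 collagen processing genes 21 were tested. Without the block, only P3H4, a partner of the collagen-modifying hydroxylases, was called, from 1649.4 and 1150.1 untreated to 443.8 and 366.2 at 8 h, a change of -1.77 (adjusted p 0.0398). With the block 4 of the 21 rose at 8 h and 2 fell, beside 4.76% and 3.79% of all genes. P4HB, a subunit of prolyl hydroxylase and a disulphide isomerase, rose by 0.90, PPIB, a prolyl isomerase, by 0.89, MIA2, which helps large cargo leave the endoplasmic reticulum, by 1.27, and SERPINH1, the collagen chaperone, by 0.53. P3H4 and PCOLCE, an enhancer of procollagen cleavage, were the 2 that fell, PCOLCE by 0.70. The median of the list at 8 h was 0.00.

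Of 26 matrix receptors 21 were tested. The collagen receptor DDR2 rose with the block at 8 h (1.18), and the integrin chain ITGB8 (-1.88) and the hyaluronan receptor CD44 (-0.78) fell. These calls of 1 receptor higher and 2 lower stand beside 4.76% and 3.79% of all genes, and the 1 higher is near that share. Of 25 matrix proteases and inhibitors 18 were tested. ADAMTS6, a secreted protease, gave 365.2 and 320.2 untreated, 1316.4 and 935.7 at 3 h, and 1094.2 and 973.4 at 8 h, and was called at 8 h also without the block (1.59, adjusted p 0.0419). With the block ADAMTS1 rose by 1.21 at 3 h (adjusted p 0.0132), while its 8 h change was -0.02. The gelatinase MMP2 (-0.59) and the inhibitor TIMP2 (-1.06) fell at 8 h with the block. In that fit 2 of the 18 were called higher at 3 h, beside 1.17% of all genes. At 8 h 1 was called higher and 2 lower, beside 4.76% and 3.79%.

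Of 57 further matrix genes 33 were tested. COL21A1 rose, from 84.8 and 33.2 untreated to 362.2 and 487.8 at 8 h, and the cross-linking enzyme TGM2 fell (-1.23), both with the block. These calls, 1 of 33 in each direction, are not above the shares of all genes, 4.76% higher and 3.79% lower. Without the block neither COL21A1 nor TGM2 passed on the signals as deposited (adjusted p 0.0816 and 0.262). COL21A1 passed without it once signals under 100 were raised to 100 (adjusted p 0.0432).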

How the data were processed

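The authors hybridized RNA of 6 Daoy cultures to Affymetrix whole-genome arrays and deposited MAS5 signal intensity per probe set, linear and scaled to a trimmed mean of 500. The methods describe 2 independent experiments. Without the block, p-values measure the spread between the arrays of a group. With the block, which removes the mean difference between the replicate series, they measure how far the changes differed between replicates. Depth does not apply, and 2 arrays per group limit the precision. Of 54675 probe sets, 41097 had 1 symbol, 1801 several and 11777 none. Each gene was represented by its brightest probe set named to it alone.

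Probe sets with a signal of 100 or more on at least 2 arrays (27616) were fitted as log2 of the deposited intensity with limma 3.58.1 (R 4.3.3; lmFit, eBayes with an intensity trend), by group over all arrays. P-values were adjusted over all those probe sets (Benjamini-Hochberg, threshold 0.05). With the replicate number as a block, same-numbered arrays deviated together (r 0.26 to 0.32 over 27616 probe sets). The local pooled error test that the methods name, coded here rather than run in the authors' software, was an alternative. Scripts were tested on simulated data. Genes were named if called, if brightest or most changed in their class, or as chain partners. Members and lists were chosen with earlier results of these data known. Promoter windows came from RefSeq (GRCh38.p14), by symbol.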

Additional observations from a re-analysis of the deposited data

Results flagged for a closer look

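COL1A2 was the member whose effect differed between 3 h and 8 h by the test of 8 h against 3 h. With the block 1.53% of all genes were called higher there, so 1 of 42 members is near the background share. With the replicate block the log2 difference was 1.23 (adjusted p 0.0166), and without the block it did not pass (adjusted p 0.448). Nor did it pass with the block on the mean of all probe sets or with no intensity trend. On its brightest probe set both 3 h arrays lay below, and both 8 h arrays above, the untreated arrays. Groups of 2 arrays are too small for a search for single arrays that stand apart.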

How the results depend on the processing

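Without a replicate block, 0 members passed in any comparison and direction under any of the settings fixed for this work: the local pooled error test, no intensity trend, quantile normalization, median centring, 3 other treatments of low signals, a pseudocount of 50, the 4 arrays compared alone, the mean of all probe sets, and leaving out each array. With the replicate block the 3 h comparison had 2 members lower and 0 higher, the 8 h comparison 7 lower and 2 higher, and 8 h against 3 h had 1 higher and 0 lower. The numbers were taken to pair the samples, which the labels do not state, because the methods describe 2 experiments and same-numbered deviations correlated. The block moved counts of calls by over 1.5 times. The settings that follow were chosen after seeing the data, and all keep the block. At 3 h the number lower was 2 with quantile normalization, median centring or the mean of all probe sets, and 1 with signals floored at 100. At 8 h the numbers higher and lower were 2 and 6 with quantile normalization, 2 and 6 with the floor, 3 and 3 with median centring, and 1 and 8 with the mean of all probe sets. Between 3 h and 8 h the number higher was 1 with quantile normalization or the floor, 2 with median centring and 0 with the mean of all probe sets. With no intensity trend 0 passed anywhere, as without a block. When each array was left out, the numbers ran from 0 to 3 lower at 3 h, 0 to 2 higher and 0 to 8 lower at 8 h, and 0 to 1 in each direction between the times. All 12 named changes kept their direction under every setting run. Median centring moved the median of all probe sets at 3 h from -0.02 to -0.13 and between the times from -0.07 to 0.13, so the members' median between the times turned from -0.13 to 0.06. At 8 h it changed the calls over all probe sets without a block from 142 higher and 40 lower to 43 and 4. Signals near 100 limit what the 8 dim members can show.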
